A study of Mus musculus with 6 samples.

Results

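The genes described here are the WNT ligands, their receptors, the R-spondins and a set of target genes, 42 in all, read in mouse ovarian tumours grown with estradiol or placebo. A member is a gene on this list whose probe set is assigned exactly 1 gene symbol by the platform annotation, and the probe set with the highest mean stood for a gene that had several. That left 41 members among 19937 genes tested, and Tcf7 was not analysed here. The members comprise 17 ligands, 12 receptors and co-receptors, 7 R-spondins and R-spondin receptors, and 5 measured target and feedback genes.

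The E2 group was 3 tumours grown from MASE2 cells in SCID mice that received 17β-estradiol (E2) pellets, and the placebo group was 3 such tumours from SCID mice with placebo pellets. Pellets were implanted when the cells were injected, and tumours were taken when the animals reached a humane endpoint, so the time of collection followed the disease. MASE2 cells came from the ascites of a tgCAG-LS-TAg mouse that had itself been treated with E2, and both groups therefore share that origin. In that strain an adenovirus carrying Cre, injected into the ovarian bursa, turns on SV40 large and small T antigens in cells of the ovarian surface. SCID hosts lack mature T and B lymphocytes and keep their other stromal and myeloid cells. Ages are not given in the labels used here.

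WNT proteins are lipid-modified secreted ligands that bind Frizzled receptors together with the co-receptor LRP5 or LRP6, and in the canonical branch this stabilises β-catenin, which acts with TCF and LEF factors on target genes. R-spondins bind LGR4, LGR5 or LGR6 and protect Frizzled receptors from removal, which strengthens the signal. In the ovary, Rspo1 and Wnt4 are known for their part in female gonad development, and LGR5 and LGR6 mark stem or progenitor cells in several epithelia.

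Of the 41 members, Lgr6 alone passed the test on all 6 arrays, and it was higher with E2. A gene passed when its limma p, after Benjamini-Hochberg adjustment over the 19937 genes, was under 0.05. The single higher member makes up 2.44% of the members, and 1.06% of all genes were called higher. No member passed as lower (0 of 41), and 0.326% of all genes were called lower. Before adjustment, 7 members (17.1%) were higher and 8 (19.5%) lower at a limma p under 0.05. Over all genes these shares were 10.4% and 6.16%. The count of members that passed after adjustment changed with the array left out. Without placebo replicate 3, 6 members were called higher and 2 lower, and without placebo replicate 2, 1 higher and 1 lower. Without placebo replicate 1 or any of the E2 arrays, 0 were called in either direction. Calls over all genes fell in those fits too. Genes called higher were 211 on 6 arrays, 62 without placebo replicate 1, and 31, 37 and 37 without E2 replicates 1, 2 and 3. Without placebo replicate 3, 14.6% of members were called higher, against 6.4% of all genes, and 4.88% were called lower, against 5.21% of all genes.

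The tumour of placebo replicate 3 stood apart, with a Pearson r of 0.857 to 0.865 with the other arrays across genes, against 0.960 to 0.994 among those. Each of the 18 intestinal epithelium markers was highest on that array, and their mean log2 value was 4.32 to 4.62 in the E2 tumours, against 4.43, 4.50 and 10.14 in placebo replicates 1, 2 and 3. Of 8 smooth muscle markers, 6 were also highest in placebo replicate 3. The smooth muscle list mean was 6.12 to 6.51 with E2, against 6.02, 6.53 and 7.87 in placebo replicates 1, 2 and 3. Results that rest on placebo replicate 3 are given with and without it. In the markers of the ovarian surface epithelium and mesothelium, 8 of 12 lay lower on every E2 array than on any placebo array, and the list mean was 5.93 to 6.19 with E2 and 7.21 to 7.91 with placebo; 1 was called lower on 6 arrays and 8 without placebo replicate 3. The mean of the granulosa and steroidogenic markers ran the other way, at 6.16 to 6.41 with E2 and 4.58 to 4.79 with placebo. On that list 5 of 9 were called higher, while Fshr, Foxl2 and Amh differed by -0.01, -0.01 and -0.18 log2 units with overlapping groups. Of 10 macrophage markers, 0 were called lower on 6 arrays and 8 without placebo replicate 3, and the list mean was 6.57 to 7.03 with E2 and 6.90 to 8.13 with placebo. Of 7 adipocyte markers, 5 lay lower on every E2 array, 1 was called lower on 6 arrays, and the list mean was 4.75 to 4.90 with E2 and 5.21 to 5.54 with placebo. T and B lymphocyte markers averaged 4.03 to 4.20 with E2 and 4.23 to 4.43 with placebo, close to the lower quartile of all genes on the arrays (4.22 to 4.39). Greb1, the oestrogen target named in the series title, differed by 3.41 log2 units (limma adjusted p = 0.00131), with every E2 array above every placebo array. In such bulk tumour samples, fewer cells of a type and less RNA per cell cannot be told apart.

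The promoters of 4 members whose contrasts are described below are shown, with Lgr6 and Wnt16 among the higher members and Rspo1 and Wnt2b among the lower ones. Each sequence runs from 250 bases before to 50 bases after the annotated start, 5′ to 3′ on the gene's strand, from RefSeq on GRCm38.p6. Capitals mark matches on either strand to the nuclear receptor half-site AGGTCA or the GC box GGGCGG. The Lgr6 window is chr1:135105227-135105526 on the minus strand, that of Wnt16 is chr6:22287977-22288276 on the plus strand, that of Rspo1 is chr4:124986180-124986479 on the plus strand, and that of Wnt2b is chr3:104961660-104961959 on the minus strand.
Lgr6: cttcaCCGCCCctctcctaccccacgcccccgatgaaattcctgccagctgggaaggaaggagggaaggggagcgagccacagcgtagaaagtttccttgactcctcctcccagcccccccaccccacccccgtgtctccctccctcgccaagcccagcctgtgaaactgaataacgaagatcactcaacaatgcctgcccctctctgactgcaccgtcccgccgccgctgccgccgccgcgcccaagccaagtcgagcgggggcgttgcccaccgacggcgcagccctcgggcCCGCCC
Wnt16: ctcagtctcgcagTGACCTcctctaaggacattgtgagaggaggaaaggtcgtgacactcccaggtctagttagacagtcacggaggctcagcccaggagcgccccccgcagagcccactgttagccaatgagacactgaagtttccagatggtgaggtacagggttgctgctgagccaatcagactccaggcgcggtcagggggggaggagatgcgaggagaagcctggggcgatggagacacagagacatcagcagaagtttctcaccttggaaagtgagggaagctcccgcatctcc
Rspo1: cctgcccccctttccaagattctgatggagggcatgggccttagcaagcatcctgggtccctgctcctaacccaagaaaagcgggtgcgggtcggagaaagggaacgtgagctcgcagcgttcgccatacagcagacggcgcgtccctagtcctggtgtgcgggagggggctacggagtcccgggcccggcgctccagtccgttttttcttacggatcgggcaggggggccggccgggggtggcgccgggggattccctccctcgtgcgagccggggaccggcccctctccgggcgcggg
Wnt2b: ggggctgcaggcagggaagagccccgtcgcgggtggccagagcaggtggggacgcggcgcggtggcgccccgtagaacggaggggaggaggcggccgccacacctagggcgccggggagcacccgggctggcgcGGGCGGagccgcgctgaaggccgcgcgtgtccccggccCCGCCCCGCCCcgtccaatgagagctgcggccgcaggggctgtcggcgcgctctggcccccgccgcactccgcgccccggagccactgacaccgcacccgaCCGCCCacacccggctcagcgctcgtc

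In these windows Wnt16 held a half-site match whose first base lay at -237 from the start, Lgr6 held 2 GC boxes, Wnt2b held 4 (2 of which share 1 base), and Rspo1 held no match to the motifs searched. Promoters were found for 29 of the 42 members, as 36 windows. The palindromic estrogen response element, searched as GGTCA, any 3 bases and TGACC, occurred in 0 of those windows and in 0.070% of the 32851 promoters of the same length. The half-site AGGTCA, whose last 5 letters open that element, occurred in 2 windows, those of Wnt16 and Tcf7, and in 16.3% of all promoters. The TCF/LEF letters CTTTGAT, like the other motifs searched on both strands, occurred in 2, those of Wnt11 and Wnt5b, and in 3.73% of all promoters. GGGCGG occurred in 27 of the 36 windows and in 35.7% of all promoters. These matches are descriptions of letters, and binding was not measured.

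Lgr6, a receptor for R-spondins, had log2 values of 6.42, 6.32 and 6.42 in the E2 tumours, against 5.10, 5.59 and 4.89 in the placebo tumours. The lowest E2 tumour lay above the highest placebo tumour, and the E2 values were the more tightly grouped. It averaged 6.38 ± 0.06 with E2 and 5.19 ± 0.36 with placebo (SD, n = 3 each). Lgr6 rose by 1.19 log2 units (SE 0.18, 95% confidence interval 0.74 to 1.64), which is 2.28-fold, with a limma adjusted p of 0.0476. Its call was close to the threshold, and the adjusted p was 0.00377 without placebo replicate 3 but 0.150 without placebo replicate 1 and 0.199, 0.220 and 0.229 without E2 replicates 1, 2 and 3. The difference itself stayed between 1.04 and 1.39 log2 units whichever array was left out.

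The other R-spondin receptors behaved differently from array to array. Lgr5, a stem cell marker of the gut, measured 4.06, 4.02 and 4.15 with E2, against 4.97, 4.25 and 5.13 with placebo. Each E2 value was under its array's lower quartile over all genes, as was the placebo replicate 2 value, so Lgr5 was not shown to be above background in the E2 tumours. The difference was -0.71 log2 units as measured and -0.56 with values raised to that quartile, and neither passed (limma adjusted p = 0.221 and 0.294). It passed without placebo replicate 2 (-0.98, adjusted p = 0.0310), the lowest placebo tumour for Lgr5. Without placebo replicate 3, the highest placebo tumour for Lgr5, the difference was -0.54 and did not pass (adjusted p = 0.124). Lgr4, the widely expressed receptor of this family, measured 6.84, 6.55 and 6.99 with E2, against 6.34, 6.47 and 8.79 with placebo. The placebo replicate 3 tumour, which carried the intestinal markers, alone exceeded the E2 tumours. The Lgr4 difference was -0.40 log2 units with that tumour and 0.39 without it, and neither passed (limma adjusted p = 0.786 and 0.119).

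Rspo1, the R-spondin of the developing ovary, lay lower with E2 on each array. It measured 5.29, 5.40 and 5.24 with E2, against 6.98, 7.60 and 5.96 with placebo. The groups did not overlap, and the placebo tumours spread over more than 1 log2 unit while the E2 tumours were closely grouped. Its mean was 5.31 ± 0.08 with E2 and 6.85 ± 0.83 with placebo (SD, n = 3 each). The difference of -1.53 log2 units (SE 0.40, 2.90-fold lower) missed the threshold on 6 arrays (limma adjusted p = 0.142). Without placebo replicate 3, Rspo1 fell by 1.98 log2 units (SE 0.17, adjusted p = 0.000486).

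Rspo3, an R-spondin of vessels and stroma, had 4.25, 4.31 and 4.19 with E2, against 4.50, 4.75 and 4.85 with placebo. The groups did not overlap, but 2 of the 3 E2 values lay below the lower quartile, and the difference of -0.45 log2 units did not pass (limma adjusted p = 0.133). Of 10 endothelial markers, 8 lay lower on every E2 array than on any placebo array and 1 higher, and 0 were called lower and 1 higher on 6 arrays. Their mean log2 value was 5.37 to 5.69 with E2 and 5.67 to 5.82 with placebo. Their summed linear intensity was 638 to 885 with E2 and 544 to 607 with placebo, and the higher sum came from Kdr. Kdr, the 1 higher marker, averaged 8.68 with E2 and 6.61 with placebo, a difference of 2.07 log2 units. Each other endothelial marker had a lower mean with E2. The part of endothelial cells in the Rspo3 difference was not tested. Rspo4 differed by -0.22 and Rspo2 by 0.20 log2 units without passing, and Rspo2 lay below the lower quartile on all 3 placebo arrays. Of the 7 members of this class, 4 had every E2 array below every placebo array and 1, Lgr6, had every E2 array above, while 11.4% of all genes lay below and 14.9% above in this way.

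**Figure D1:**
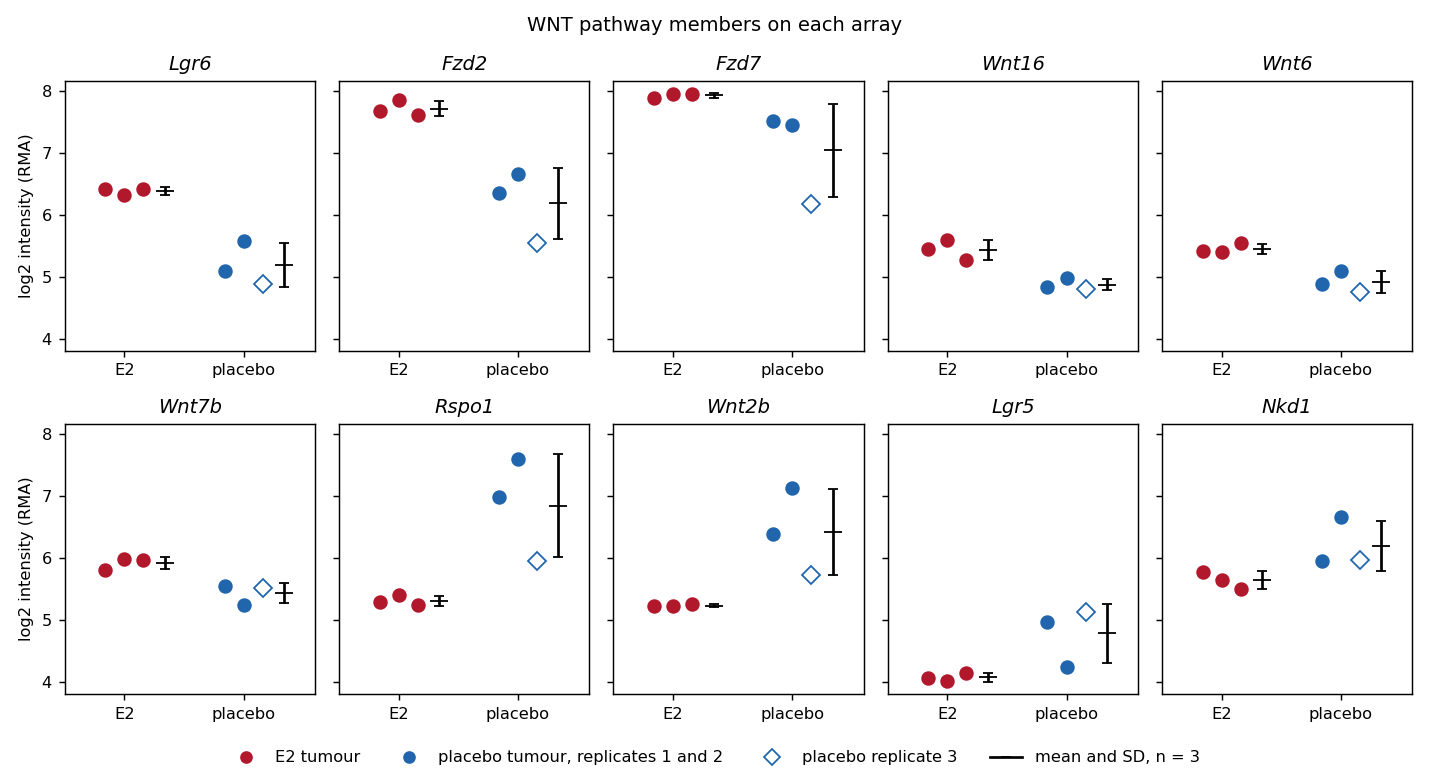
Log2 intensity of 10 WNT pathway members on each array, with E2 tumours in red left of placebo tumours in blue, placebo replicate 3 as an open diamond, and black bars for mean and SD (n = 3). In each panel the E2 and placebo tumours do not overlap, and placebo replicate 3 is the lowest placebo tumour for Lgr6, Fzd2, Fzd7, Wnt16, Wnt6, Rspo1 and Wnt2b.

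Among the ligands, Wnt2b had the largest difference. Wnt2b, a canonical ligand of mesenchyme and mesothelium, measured 5.22, 5.23 and 5.26 with E2, against 6.40, 7.12 and 5.73 with placebo. The E2 tumours were nearly equal, and the placebo tumours took the same order as for Rspo1, with replicate 2 highest and replicate 3 lowest. Wnt2b averaged 5.24 ± 0.02 with E2 and 6.42 ± 0.70 with placebo (SD, n = 3 each), a difference of -1.18 log2 units (SE 0.33, 2.27-fold lower) that missed the threshold (limma adjusted p = 0.170). With placebo replicate 3 left out it fell by 1.53 log2 units (adjusted p = 0.00240). The mean log2 value of the 12 surface epithelium and mesothelium markers was 6.03, 5.93 and 6.19 with E2, against 7.91, 7.78 and 7.21 with placebo, where replicate 1 was highest and replicate 3 lowest. Single markers differed from that mean. Msln, Upk3b, Upk1b, Gpm6a, Muc16 and Wt1 took the placebo order of Rspo1 and Wnt2b. Lrrn4 and Krt7 took other orders, and Krt8, Krt18, Krt19 and Calb2 were highest in placebo replicate 3. The mean of 10 fibroblast markers was 7.37, 7.24 and 7.59 with E2, against 7.63, 7.98 and 7.36 with placebo. That mean took the placebo order of Rspo1 and Wnt2b, though the groups overlapped. Of the fibroblast markers, 5 were called lower and 1 higher without placebo replicate 3, and 0 in either direction on 6 arrays. The parts of surface epithelium, mesothelium and fibroblast cells in the Rspo1 and Wnt2b differences were not tested.

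Wnt16, Wnt6 and Wnt7b were each higher on every E2 array than on any placebo array, by 1.40-fold to 1.48-fold at the means. Wnt16, a ligand known from bone and joint biology, measured 5.46, 5.59 and 5.27 with E2, against 4.83, 4.98 and 4.81 with placebo. The difference was 0.57 log2 units (SE 0.11, limma adjusted p = 0.0812), and 0.54 without placebo replicate 3, where it passed (adjusted p = 0.0256). Wnt6, a ligand of epithelia in development, measured 5.42, 5.40 and 5.54 with E2, against 4.89, 5.10 and 4.76 with placebo. It differed by 0.54 log2 units (SE 0.11, limma adjusted p = 0.0933) and passed at 0.46 without placebo replicate 3 (adjusted p = 0.0282). Wnt7b, which acts in lung and kidney development, measured 5.81, 5.99 and 5.98 with E2, against 5.55, 5.25 and 5.52 with placebo. The Wnt7b difference was 0.49 log2 units (SE 0.11, limma adjusted p = 0.119), and 0.52 without placebo replicate 3 (adjusted p = 0.0285). The mean of the granulosa and steroidogenic markers was higher in the same E2 tumours, although Fshr, Foxl2 and Amh were not. Fshr lay below the lower quartile on all 6 arrays. Whether cells with the higher markers of that list had a part in the Wnt16, Wnt6 and Wnt7b differences was not tested.

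The remaining 13 ligands differed by -0.35 (Wnt11) to 0.42 (Wnt5a) log2 units, and their limma adjusted p ranged from 0.133 to 0.911. Wnt5a, the prototype of the non-canonical ligands, measured 6.44, 6.25 and 6.44 with E2, against 5.85, 6.09 and 5.94 with placebo, so the groups did not overlap, yet the difference did not pass (adjusted p = 0.133). Wnt11, another ligand of the non-canonical branch, measured 4.96, 4.80 and 4.75 with E2, against 5.29, 5.08 and 5.18 with placebo (adjusted p = 0.178). Wnt9a also lay lower on every E2 array than on any placebo array, by 0.29 log2 units at the means (adjusted p = 0.259). Wnt10a, named with Wnt5a and Wnt4 for the highest mean signals among these 13, averaged 5.32 ± 0.18 with E2 and 5.49 ± 0.04 with placebo (SD, n = 3 each).

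Wnt4, the ligand most closely tied to the ovary and to progesterone action, was the member with more than 1 single-gene probe set. Its brighter probe set measured 5.81, 5.73 and 5.86 with E2, against 5.57, 5.75 and 5.54 with placebo, and the difference of 0.18 log2 units did not pass (limma adjusted p = 0.403). The dimmer probe set read 5.84, 5.82 and 6.29 with E2, against 5.35, 5.61 and 5.12 with placebo. The E2 and placebo values of the dimmer probe set did not overlap, and its difference was 0.62 log2 units, so the Wnt4 probe sets agree in sign and differ in size.

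**Figure D2:**
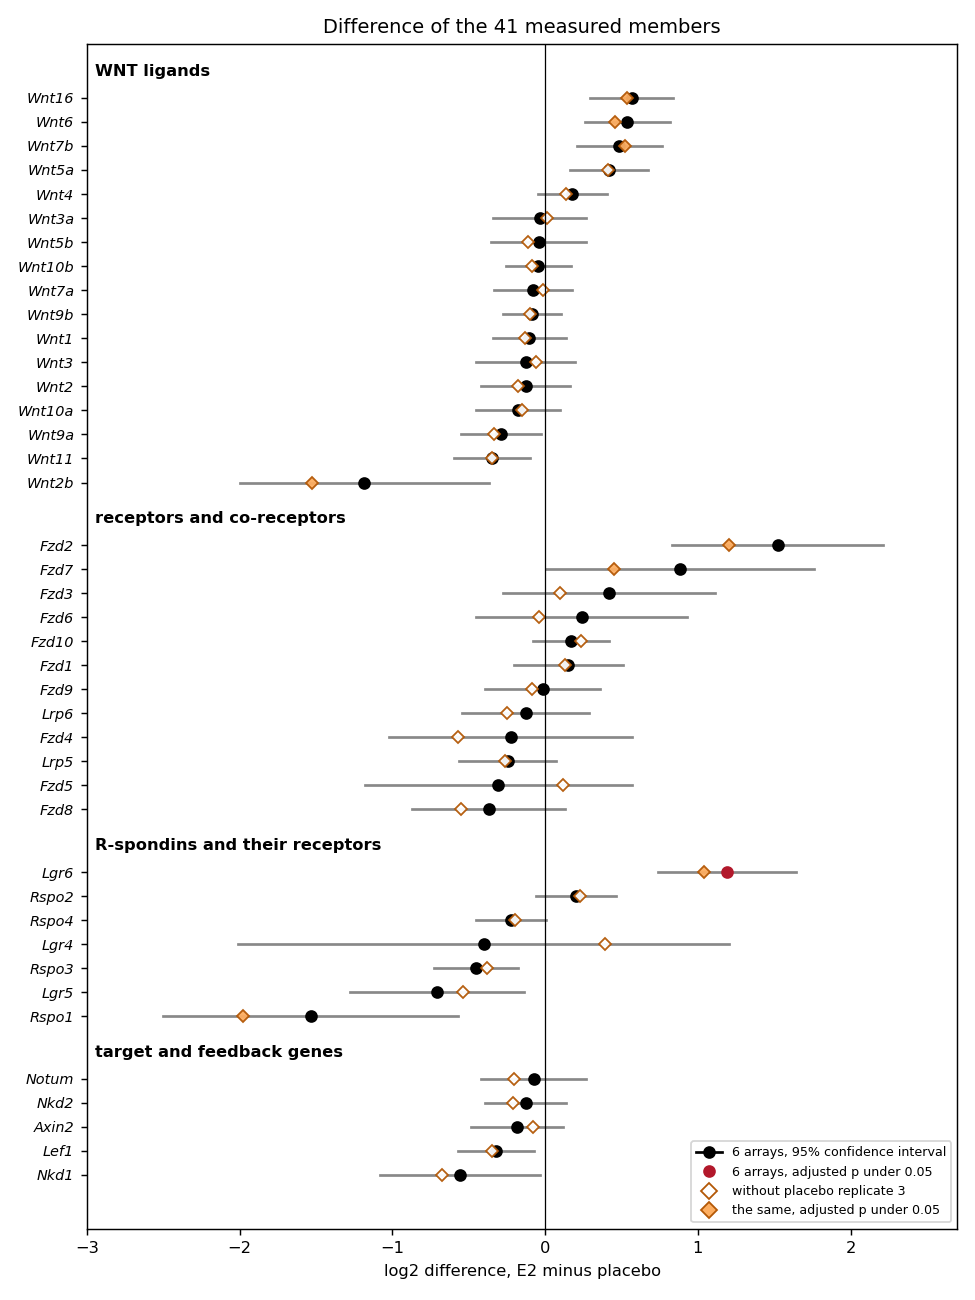
Log2 difference, E2 minus placebo, of the 41 measured members by role, with circles and 95% confidence intervals for the fit to 6 arrays and diamonds for the fit without placebo replicate 3. Lgr6 is the red circle that passed on 6 arrays, and 8 filled diamonds passed without placebo replicate 3, with Rspo1 and Wnt2b below 0 and Lgr6, Fzd2, Fzd7, Wnt16, Wnt6 and Wnt7b above it.

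Of the 12 receptors, Fzd2 and Fzd7 lay higher on each E2 array, and 0 passed on 6 arrays (2, Fzd2 and Fzd7, had an unadjusted limma p under 0.05). These 2 are 16.7% of the receptors, near the 14.9% of all genes that lay higher on every E2 array, and 10.4% of all genes were higher at that unadjusted p. Fzd2, a Frizzled linked to WNT5A signalling in human mesenchymal-type tumour cells, measured 7.68, 7.85 and 7.61 with E2, against 6.36, 6.66 and 5.55 with placebo. The gap between the groups was wide even against the highest placebo tumour. Fzd2 averaged 7.71 ± 0.12 with E2 and 6.19 ± 0.57 with placebo (SD, n = 3 each). The difference was 1.52 log2 units (SE 0.28, 95% confidence interval 0.83 to 2.21, 2.87-fold) with a limma adjusted p of 0.0708. It passed at 1.20 log2 units without placebo replicate 3 (adjusted p = 0.00109).

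Fzd7, a Frizzled of stem and progenitor cells, measured 7.88, 7.95 and 7.95 with E2, against 7.51, 7.45 and 6.18 with placebo. Placebo replicate 3 lay far below the other placebo tumours and set much of the difference in means. That difference was 0.88 log2 units on 6 arrays (limma adjusted p = 0.301) and 0.45 without placebo replicate 3, where it passed (adjusted p = 0.0165). In 5 of the 12 receptors, placebo replicate 3 was the lowest of all 6 arrays, as it was in 6571 of the 19937 genes. The class median of that array minus the mean of the other placebo arrays was -0.45 log2 units, against -0.02 over all genes.

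The other 10 receptors differed by -0.37 (Fzd8) to 0.42 (Fzd3) log2 units, with limma adjusted p of 0.413 to 0.969. Without placebo replicate 3 the Fzd3 difference was 0.10 log2 units, and that of Fzd4 was -0.57 (adjusted p = 0.0687), against -0.23 on 6 arrays. Fzd8 differed by -0.55 in that fit (adjusted p = 0.0543). For Lrp6, an essential co-receptor, the values were 7.42, 7.34 and 7.79 with E2, against 7.68, 7.84 and 7.39 with placebo. The tumours overlapped, and the 95% confidence interval of the Lrp6 difference ran from -0.54 to 0.29 log2 units. Lrp5, its partner gene, differed by -0.24 log2 units (adjusted p = 0.413). Fzd1 and Fzd6 averaged 6.97 ± 0.12 and 6.98 ± 0.32 with E2, against 6.82 ± 0.25 and 6.74 ± 0.49 with placebo (SD, n = 3 each). Fzd5, a Frizzled of the intestinal epithelium, measured 5.76, 5.56 and 5.58 with E2, against 5.45, 5.58 and 6.79 with placebo, where replicate 3 was the high one. The sign of the difference turned without that array for 4 members, Fzd5, Fzd6, Lgr4 and Wnt3a, none of which passed in either fit.

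**Figure D3:**
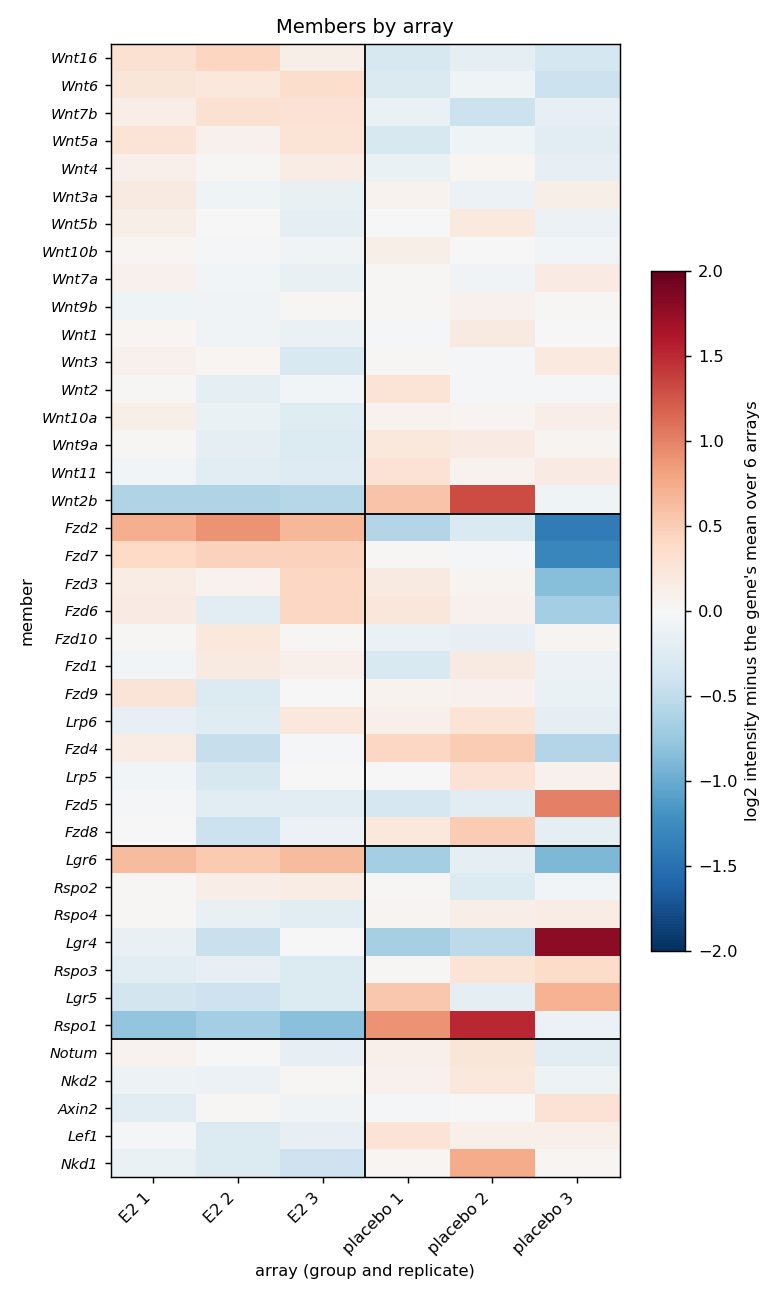
Log2 intensity of each member minus that gene's mean over the 6 arrays, in red where higher and blue where lower, with E2 arrays left of placebo arrays and lines between the role classes. Lgr4 and Fzd5 are high in placebo replicate 3, while Rspo1 and Wnt2b are low on each E2 array and highest in placebo replicate 2.

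No target gene of the canonical branch rose or fell with E2 at the test's threshold (0 of 5 passed limma; Lef1 and Nkd1, 2 of the 5, had a lower mean and an unadjusted p under 0.05, as did 6.16% of all genes). Each of the 5 measured target and feedback genes had a lower mean in the E2 tumours, with differences of -0.56 to -0.08 log2 units on the deposited scale, and Notum alone changed sign under other scalings (0.02 after repeated quantile normalization and 0.01 after median centring). Axin2, the most widely used readout of β-catenin activity, measured 5.31, 5.56 and 5.47 with E2, against 5.52, 5.55 and 5.84 with placebo. The groups overlapped, and the difference was -0.18 log2 units (95% confidence interval -0.49 to 0.12, limma adjusted p = 0.507). Placebo replicate 3 was the high one, and without it the Axin2 difference was -0.08 (adjusted p = 0.708).

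Nkd1, a feedback inhibitor that binds Dishevelled, measured 5.78, 5.64 and 5.50 with E2, against 5.96, 6.67 and 5.97 with placebo. The groups were apart by a small margin, and placebo replicate 2 was again the highest. The Nkd1 difference was -0.56 log2 units (SE 0.21, limma adjusted p = 0.280), and -0.67 without placebo replicate 3 (adjusted p = 0.0680). Lef1, a transcription factor that is also a target, measured 4.50, 4.27 and 4.38 with E2, against 4.82, 4.65 and 4.65 with placebo. Those groups did not overlap either, at low signal (difference -0.32, adjusted p = 0.203). Nkd2 and the secreted WNT deacylase Notum differed by -0.13 and -0.08 log2 units (adjusted p = 0.586 and 0.815).

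Counted over all 41 members, 7 (17.1%) lay higher on every E2 array than on any placebo array, as did 14.9% of all genes, and 9 (22.0%) lay lower, as did 11.4% of all genes. At an unadjusted limma p under 0.05, 7 members (17.1%) were higher and 8 (19.5%) lower, against 10.4% and 6.16% of all genes. The 10 members shown in full above and in the plot of their values were chosen by limma p or difference on these same arrays. Each had an exact two-sided permutation p of 0.10, the smallest that 3 tumours against 3 can give. Because of that choice, the permutation p adds no separate evidence. The median difference was -0.10 log2 units over the members and -0.01 over all genes. Members with a lower mean with E2 numbered 28 of 41 on the deposited scale, but 23 after repeated quantile normalization and 22 after median centring, so the direction of the members of small difference depends on the scaling. In 28 of 41 members (68.3%) the E2 tumours had the smaller SD, close to the 71.9% of all genes. Signal was at or above the lower quartile of genes on all 6 arrays for 34 members, among them the 12 receptors and 3 of the 7 members of the R-spondin class.

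Beyond the members, 77 measured genes of the same pathway were examined. On 6 arrays 4 (5.19%) passed as higher and 0 as lower, against 1.06% and 0.326% of all genes. Before adjustment, 9 (11.7%) were higher and 8 (10.4%) lower at a limma p under 0.05, against 10.4% and 6.16% of all genes. In the fit without placebo replicate 3, 9 (11.7%) were higher and 12 (15.6%) lower, against 6.4% and 5.21% of all genes. Of 20 genes of WNT secretion, alternative receptors and receptor turnover, Prickle1 passed. Prickle1, a planar cell polarity protein, measured 6.37, 6.23 and 6.65 with E2, against 5.50, 5.66 and 5.46 with placebo, with no overlap. It rose by 0.88 log2 units (SE 0.13, limma adjusted p = 0.0440). Without placebo replicate 3, 4 of the 20 genes of this list fell, and on 6 arrays their adjusted p ranged from 0.299 to 0.941. Wls, the carrier that brings WNT proteins to the cell surface, differed by -0.59 log2 units without that array and -0.18 on 6 arrays. Vangl1 differed by -0.44 and -0.16 and Celsr1 by -0.61 and -0.46 in the same fits. Ptk7 differed by -0.37 without that array and by 0.07 on 6 arrays, so its direction turned with 1 tumour.

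In the β-catenin relay, 1 of 29 genes passed on 6 arrays. Bcl9, which couples β-catenin to its nuclear coactivators, measured 7.10, 6.96 and 7.13 with E2, against 6.14, 6.18 and 6.13 with placebo. Both groups were tight and clearly apart, and Bcl9 rose by 0.91 log2 units (SE 0.08, limma adjusted p = 0.00957). The β-catenin gene Ctnnb1 itself differed by -0.03 log2 units (adjusted p = 0.940). Tcf7l2, a TCF factor that acts with β-catenin, measured 6.29, 6.11 and 6.20 with E2, against 6.70, 6.79 and 6.95 with placebo (difference -0.61, adjusted p = 0.0572). In the fit without placebo replicate 3, Bcl9, the corepressor gene Tle3 and the kinase gene Csnk1a1 rose, and Tcf7l2, Tle1 and Amer1 fell. Tle3 differed by 0.57 log2 units in that fit and 0.51 on 6 arrays, and Csnk1a1 by 0.49 and 0.30. Tcf7l2 differed by -0.55 there, Tle1 by -0.51 there and -0.42 on 6 arrays, and Amer1 by -0.52 and -0.17.

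Of 15 further reported target genes, 0 passed on 6 arrays (1 higher and 2 lower at an unadjusted limma p under 0.05), and 2 rose and 4 fell without placebo replicate 3. Over all genes, 10.4% were higher and 6.16% lower at that unadjusted p, and 6.4% rose and 5.21% fell without placebo replicate 3. Cd44, an adhesion receptor, differed by 1.10 log2 units (adjusted p = 0.0965), and Myc, the growth regulator, by 0.51 (adjusted p = 0.379). Leaving out placebo replicate 3, these were 1.31 and 0.80 log2 units and passed. Ephb3, Id2, Nrcam and Tnfrsf19 fell in that fit, by differences of -0.79, -1.41, -0.51 and -0.50 log2 units, and on 6 arrays these were -0.75, -1.06, -0.30 and -0.33. These genes respond to other pathways too, so their list is no measure of WNT activity alone.

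Among 13 secreted antagonists, 2 rose on 6 arrays. Frzb, a Frizzled-related protein that binds WNTs, measured 7.60, 7.49 and 7.71 with E2, against 4.56, 5.05 and 5.23 with placebo, and rose by 2.65 log2 units (limma adjusted p = 0.00441). Dkk2, which binds the LRP co-receptors, rose by 1.49 log2 units (adjusted p = 0.0237). Sfrp4 measured 10.05, 9.37 and 9.29 with E2, against 4.76, 7.13 and 4.13 with placebo (difference 4.23, adjusted p = 0.0694). Without placebo replicate 3, Sfrp4 rose (3.62 log2 units) and Sfrp1 fell (-0.87, and -0.83 on 6 arrays), and the other 9 of the 13 antagonists passed in neither fit.

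**Figure D4:**
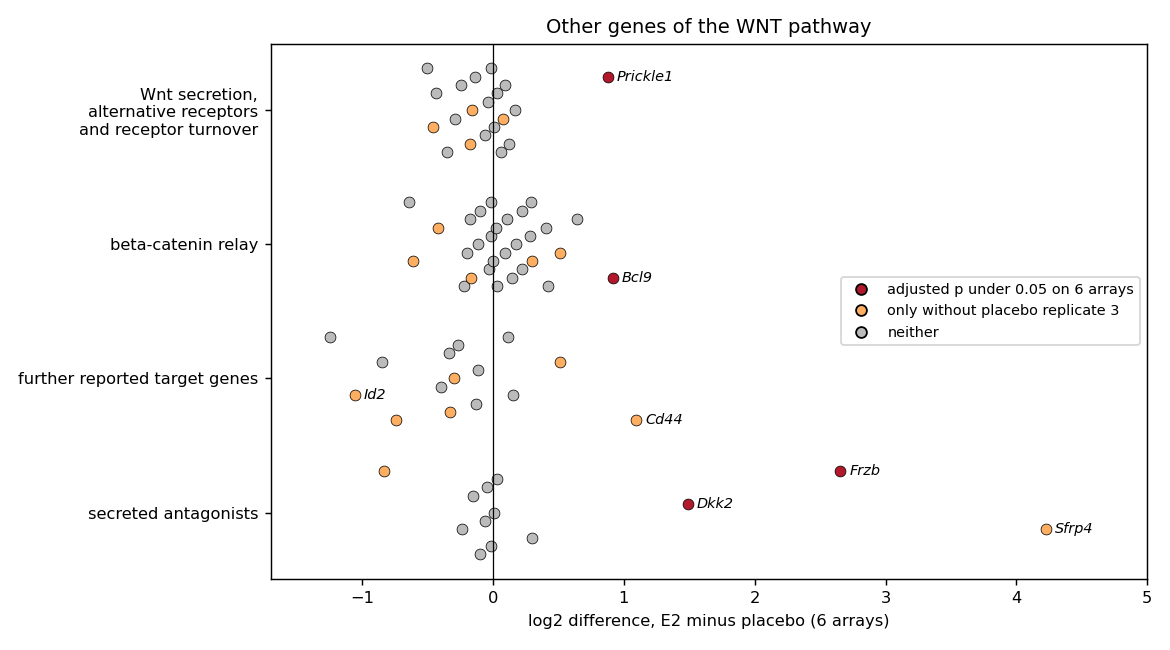
Log2 difference, E2 minus placebo, on 6 arrays for 77 other WNT pathway genes in 4 lists, each point a gene, red where it passed on 6 arrays and orange where it passed in the fit without placebo replicate 3 but not on 6 arrays. Prickle1, Bcl9, Dkk2 and Frzb are the 4 red points, and the medians of the 4 lists lie between -0.30 and 0.03.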

How the data were processed

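RNA of 6 tumours, 3 E2 and 3 placebo, was hybridised to whole-transcript mouse arrays, 1 per tumour, and grouped by the sample titles. The deposited values are log2 intensities and, per the submitters' processing notes, the authors used RMA; its software, annotation and genome build are not stated there. RMA equalises arrays and compresses changes near background. The number of arrays limits precision, and no detection call was used.

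Of 34760 probe sets, 21640 had 1 symbol (21553 matched to RefSeq names, 0 changed), 1321 had several and 11799 had none; 19937 genes remained. The comparison used limma 3.58.1 (lmFit, eBayes; R 4.3.3) on group means, two-sided, without covariates, with p adjusted over all genes. The limma step was tested on simulated data.

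Members and lists were chosen with earlier results of these data known. Shown in full were members called on 6 arrays or without placebo replicate 3, or with an unadjusted p under 0.05 and a difference of at least 0.5 log2. From each other pathway list up to 6 such called genes were named; Ctnnb1, Fzd3 and Fzd4 were given values after these were seen. Alternatives were leaving out each array, the replicate block, 2 filters on dim genes, the mean of probe sets, repeated quantile normalization, median centring, trended and robust variance and array weights; the lower quartile floor was added after the data were seen. Promoters came from a RefSeq table of GRCm38.p6. The tumours are biological replicates per the series' design text.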

Additional observations from a re-analysis of the deposited data

How the results depend on the processing

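The number of arrays and the tumour of placebo replicate 3 limited most results. Leaving out single arrays gave 0 to 6 members called higher, 0 to 2 called lower, 31 to 1276 genes called higher and 0 to 1039 called lower, and a member median of -0.14 to -0.06 log2 units. With array weights, which gave placebo replicate 3 a weight of 0.149, 5 members were higher and 2 lower, and 1026 and 760 genes. Median centring gave 2 members and 363 genes higher (Lgr6 and Wnt16; Wnt16 adjusted p = 0.0495) and a member median of -0.0204 log2 units; repeated quantile normalization gave a median of -0.0219. Leaving out genes under the median signal gave 2 higher members (Lgr6 and Fzd2; Fzd2 adjusted p = 0.04997). The replicate block gave 0 members, 10 genes higher and 0 lower, and Lgr6 had an adjusted p of 0.209. Deviations of same-numbered tumours from their group means correlated at -0.03, -0.18 and -0.13. Of the 3 E2 tumours, 0 correlated best with its own number. With 3 tumours a group, 1 of them standing apart, these correlations cannot settle whether same-numbered tumours shared a batch. With the lower quartile floor, Lgr6 had an adjusted p of 0.0540. Over the 10 members shown in full, 0 of 147 alternative values reversed direction, 125 kept their side of the threshold, 16 passed where the 6 arrays did not, and 6, those of Lgr6, no longer passed. In the other settings the counts stayed within 1.5 times. The causes were not tested.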
